A study of Mus musculus with 3 samples.

Results

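The TNF and NF-kB pathway genes described here were chosen by name from an imaging panel, namely Tnf, Tnfrsf1b, Nfkb1, Rela, Nfkbia, Tnfaip3 and Csf1. They make up 7 of the 258 panel genes in the tables used here. The samples were formalin-fixed, paraffin-embedded sections of 3 tumours titled MMTV-PyMT WT, with 1 section from each tumour, and they formed a single untreated group. The sources used here do not give the strain, the age of the mice or what WT stands for. In this model the middle T oncogene of polyomavirus is driven in mammary epithelium by the promoter of the mouse mammary tumour virus. Transcripts were counted in segmented cells on the MERSCOPE platform, which decodes single RNA molecules in place by repeated rounds of hybridization and imaging. The comparisons below therefore set cell groups and positions within the same section against each other, with the tumour as the unit of replication (n = 3). A level is the summed count of a gene per 1000 transcripts of the 258 genes in the same cells, and levels are compared between cells and not between genes, since the counts are not scaled by transcript length.

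TNF is a cytokine made by macrophages and other cells, and it signals through cell-surface receptors. Tnfrsf1b encodes the receptor that is found mainly on immune and endothelial cells. Receptor signalling frees NF-kB dimers from their inhibitors, so that subunits such as those encoded by Nfkb1 and Rela enter the nucleus and switch on target genes. Among these targets are 2 genes that close the loop: Nfkbia encodes the inhibitor that holds NF-kB in the cytoplasm, and Tnfaip3 encodes the ubiquitin-editing enzyme A20, which shuts off signalling upstream. Tnf is itself an NF-kB target. Csf1, also a known target, encodes the growth factor on which macrophages depend.

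Promoter sequence is shown for 4 members, since 3 of them (Nfkbia, Tnfaip3 and Tnf) turned out to be found in the same cells and Csf1 was not among these. The bases are the 250 upstream of the annotated start, 5′ to 3′ on the gene's strand, from RefSeq (GRCm38.p6). They lie at chr12:55492648-55492897 (minus strand) for Nfkbia, chr10:19015411-19015660 (minus strand) for the first of 2 listed Tnfaip3 promoters, chr17:35202008-35202257 (minus strand) for Tnf and chr3:107760470-107760719 (minus strand) for Csf1. Capitals mark matches to a stringent form of the NF-kB motif (GGG, any 2 bases, then TTTCC), searched on both strands. All 3 matches lay on the opposite strand.
Nfkbia: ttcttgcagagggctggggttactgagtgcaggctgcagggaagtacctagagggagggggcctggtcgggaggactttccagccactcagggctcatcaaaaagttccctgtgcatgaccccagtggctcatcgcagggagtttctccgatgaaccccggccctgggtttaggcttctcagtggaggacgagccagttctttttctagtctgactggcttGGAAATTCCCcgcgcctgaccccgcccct
Tnfaip3: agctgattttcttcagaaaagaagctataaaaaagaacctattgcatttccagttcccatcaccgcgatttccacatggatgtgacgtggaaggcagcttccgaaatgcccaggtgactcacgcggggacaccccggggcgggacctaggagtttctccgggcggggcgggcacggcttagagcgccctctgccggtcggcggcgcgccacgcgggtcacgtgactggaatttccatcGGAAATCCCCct
Tnf: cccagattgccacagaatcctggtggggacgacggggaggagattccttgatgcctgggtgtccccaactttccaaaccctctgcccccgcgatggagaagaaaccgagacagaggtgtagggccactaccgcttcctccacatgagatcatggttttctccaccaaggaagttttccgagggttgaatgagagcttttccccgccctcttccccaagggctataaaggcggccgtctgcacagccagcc
Csf1: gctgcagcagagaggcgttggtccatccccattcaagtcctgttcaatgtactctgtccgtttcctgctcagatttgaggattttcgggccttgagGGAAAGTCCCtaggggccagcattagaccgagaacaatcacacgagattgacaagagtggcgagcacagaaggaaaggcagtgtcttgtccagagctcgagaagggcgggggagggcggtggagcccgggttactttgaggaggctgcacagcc
The match lay 29 bases upstream of the start in Nfkbia (GGGAATTTCC on the motif's strand), 12 bases upstream in Tnfaip3 (GGGGATTTCC) and 154 bases upstream in Csf1 (GGGACTTTCC). The windows of Tnf, Tnfrsf1b and Rela and the second Tnfaip3 promoter held none. Of 32851 mouse promoter windows of the same length, 1.41% held this motif. The looser form of GGG, any 5 bases and CC, which overlaps it, was found in all 6 members with an entry and in 45.8% of all windows. Nfkb1 had no entry in the promoter table.

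The 3 sections held 663145, 513963 and 786165 segmented cells with 71492483, 60759690 and 78051090 panel transcripts in tumours 1, 2 and 3. The members took 2338748, 2150028 and 2690793 of these transcripts. The filters kept 619770, 453995 and 673638 cells, whose median counts were 98, 106 and 94 transcripts, and no cell identifier was shared between sections. The tables also hold 27 Blank codes, barcodes assigned to no gene, whose counts give the rate of false decoding. Cells were grouped by marker gates, each asking for at least 3 transcripts of at least 2 markers. The other epithelial cells (280187, 191843 and 321936) passed the epithelial gate but no stromal gate and not the basal keratin gate. Epithelial markers took 83.9, 80.9 and 74.1 per 1000 of their transcripts. Basal keratins were not absent from them, at 4.94, 2.46 and 3.50 per 1000.

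The gates did not all hold what their names say. Cells passing the fibroblast-marker gate made up 28.5%, 28.2% and 20.4% of kept cells, and they held fibroblast markers at 119, 131 and 112 per 1000, against 11.6, 9.67 and 8.52 in other epithelial cells. They also held epithelial markers at 68.5, 63.1 and 57.2 per 1000, against 83.9, 80.9 and 74.1. Macrophage-gated cells (4974, 2794 and 1134) had macrophage markers at 58.0, 41.96 and 26.9 per 1000, against 1.65, 1.57 and 1.17 in other epithelial cells, beside epithelial markers at 63.3, 60.5 and 70.6. Both gates thus hold epithelial transcripts beside those of their own list, so the cells are named by their gate and not as a cell type. Cells gated on Pecam1 and Cdh5 (4521, 2522 and 1439) were lower in epithelial markers, at 25.3, 25.7 and 26.6 per 1000. This gate and the one on Pdgfrb and Rgs5 (920, 798 and 650 cells) rest on 2 markers each, so both are named by their genes.

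In other epithelial cells, 6 of the 7 members lay above the highest Blank code in all 3 tumours, and Tnf did so in 2. Tnf, the ligand, had 0.368, 1.45 and 0.501 counts per 1000 in tumours 1, 2 and 3, beside 0.385, 0.383 and 0.346 for the highest Blank. Its level in tumour 1 therefore cannot be told apart from false decoding by this yardstick, while that in tumour 2 stood well above it. The coefficient of variation of Tnf between tumours was 76.4%, and 4 of 128 genes above the Blank codes had a larger one. Rela, the transactivating NF-kB subunit, had 15.3, 13.9 and 15.3 counts per 1000 and was among the steadiest genes, with a coefficient of 5.35% against a median of 21.1%. Nfkb1, whose product is the other subunit of the classical dimer, had 10.2, 10.1 and 9.23, with 5.44%. Csf1 followed the order of Tnf with its highest level in tumour 2, at 3.37, 6.85 and 4.91 counts per 1000. The receptor gene Tnfrsf1b (3.24, 2.35 and 2.30), Nfkbia (2.9995, 3.57 and 2.23) and Tnfaip3 (0.747, 1.09 and 1.17) varied about as much between tumours as the median gene. Each order rests on 1 section per tumour.

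Tnf and Tnfrsf1b were higher in macrophage-gated cells than in other epithelial cells of the same tumours. Tnf had 1.21, 2.28 and 0.915 counts per 1000 in macrophage-gated cells, against 0.368, 1.45 and 0.501 in other epithelial cells. It was higher in all 3 tumours, yet the level of epithelial cells in tumour 2 exceeded that of macrophage-gated cells in tumours 1 and 3. The log2 fold change was 0.86 ± 0.26 (SE; adjusted p = 0.0179 by the quasi-likelihood test of edgeR with Benjamini-Hochberg adjustment over 258 genes). Without tumour 1 it was 0.61 and no longer passed (adjusted p = 0.204). Tnfrsf1b had 10.4, 6.37 and 4.12 counts per 1000 in macrophage-gated cells, against 3.24, 2.35 and 2.30 in other epithelial cells. Its log2 fold change was 1.15 ± 0.26 (edgeR adjusted p = 0.00291, and 0.0542 without tumour 1).

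Other markers moved with this gate. The 3 neutrophil markers took 9.51, 7.26 and 2.74 per 1000 in macrophage-gated cells, against 0.843, 0.994 and 0.828 in other epithelial cells, and of these only Csf3r was above the highest Blank. The 6 T or NK cell markers took 3.47, 2.70 and 2.07, against 1.12, 1.07 and 1.06. None of these markers was at 0, and their part in the 2 results was not tested. The highest Blank in the macrophage gate was 0.394, 0.549 and 1.79 per 1000, and in tumour 3 it exceeded Tnf. A different code was the highest over all kept cells of tumour 3. Of the 205 transcripts of that code in this gate, a single cell held 64. More cells with Tnf and more Tnf per cell cannot be told apart in a summed level.

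**Figure D1:**
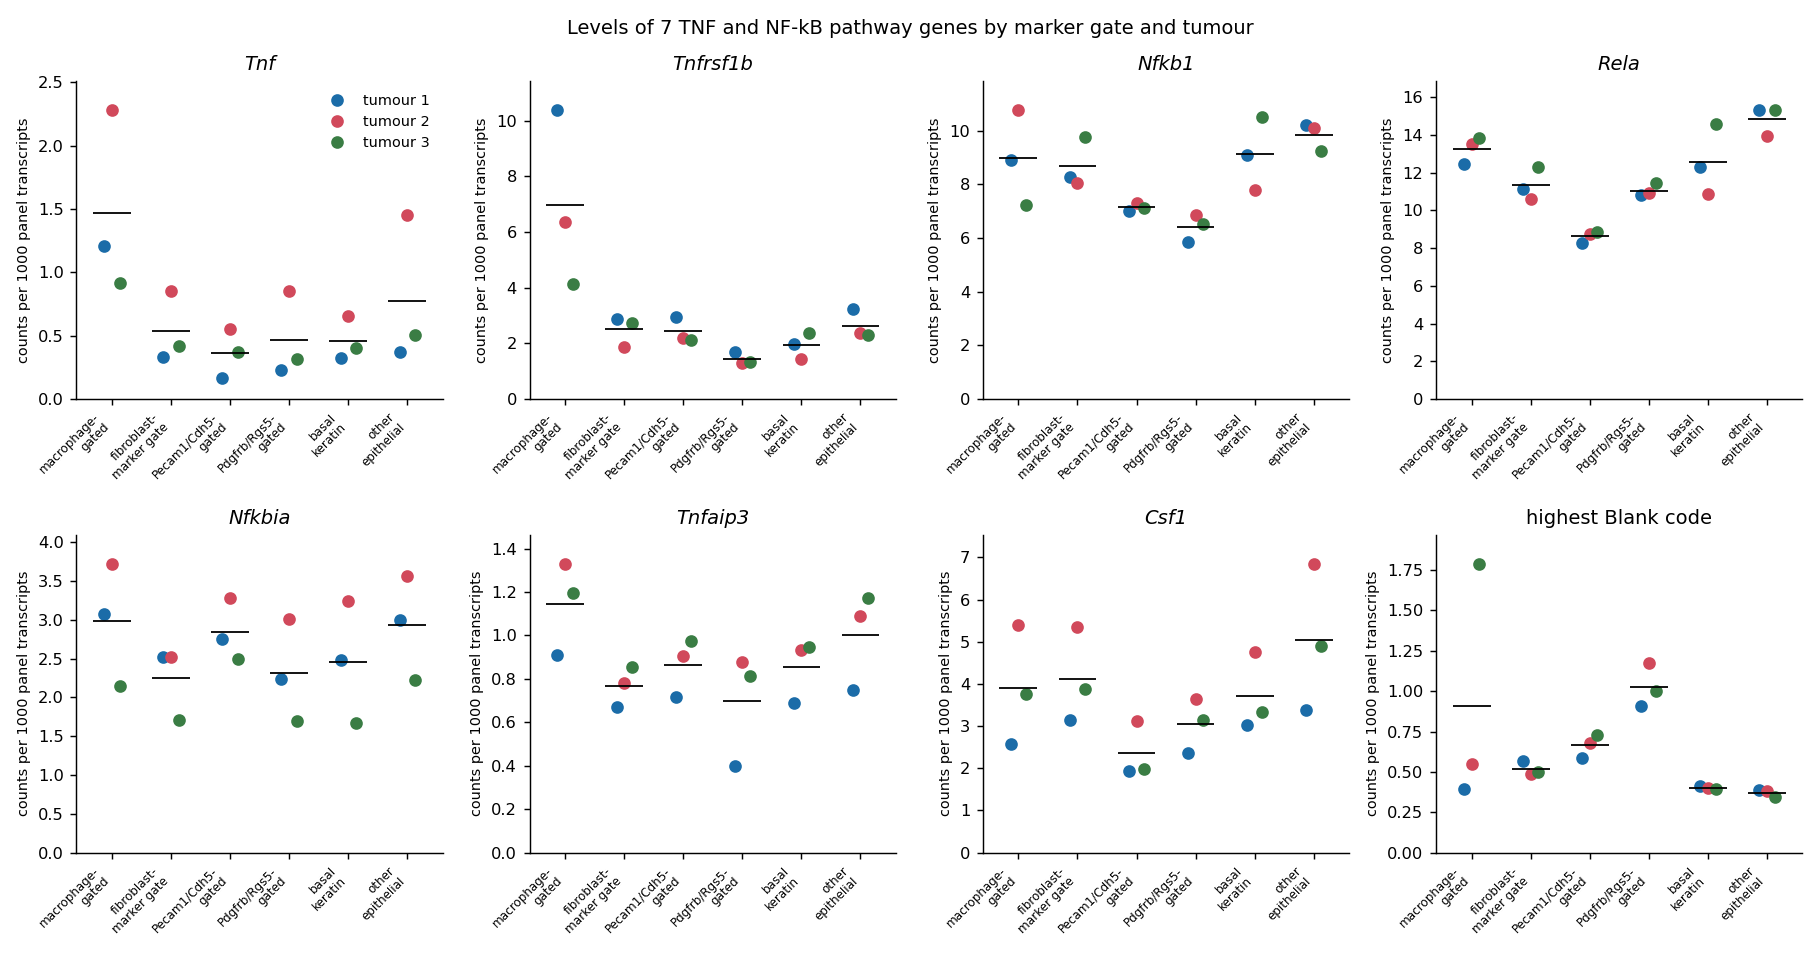
Counts per 1000 panel transcripts (vertical axes, from 0) of the 7 members and of the highest Blank code in 6 marker gates. Each point is 1 tumour and each line the mean of the 3. Tnf and Tnfrsf1b stand highest in macrophage-gated cells, where Tnf averages 1.47 and Tnfrsf1b 6.96, against 0.774 and 2.63 in other epithelial cells, while Rela is highest in other epithelial cells.

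Of the 7 members, 4 passed the test between macrophage-gated and other epithelial cells, where 39.1% of all genes did (16.3% higher and 22.9% lower). Beside the 2 higher ones, 2 were lower. Csf1 had 2.57, 5.41 and 3.76 counts per 1000 in macrophage-gated cells, against 3.37, 6.85 and 4.91 in other epithelial cells (log2 fold change -0.63 ± 0.15, edgeR adjusted p = 0.00535). Rela had 12.5, 13.5 and 13.8, against 15.3, 13.9 and 15.3 (-0.41 ± 0.12, edgeR adjusted p = 0.012). Both calls are fragile. They were lost when any 1 tumour was left out and when library size alone was used in place of TMM scaling, which gave -0.37 for Csf1 and -0.16 for Rela. That scaling moved the median of all genes by 0.25 in this contrast and the called genes from 42 higher and 59 lower to 55 higher and 16 lower. Nfkbia (-0.23 ± 0.15), Tnfaip3 (-0.05 ± 0.17) and Nfkb1 (-0.37 ± 0.17) did not pass. The level of Tnfaip3 was higher in macrophage-gated cells in 3 of 3 tumours (0.908, 1.33 and 1.19, against 0.747, 1.09 and 1.17). That of Nfkbia was higher in 2 of 3. Their fitted signs ran against these levels, and library size alone gave 0.20 for Tnfaip3 and 0.02 for Nfkbia.

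Cells gated on Pecam1 and Cdh5 were low in Rela, Csf1 and Tnf. Rela had 8.29, 8.77 and 8.87 counts per 1000 there, against 15.3, 13.9 and 15.3 in other epithelial cells, the widest gap of this gene between any gate and the epithelial cells (log2 fold change -0.52 ± 0.12, edgeR adjusted p = 0.00142, and 0.142 without tumour 1). Csf1 had 1.95, 3.12 and 1.98, against 3.37, 6.85 and 4.91 (-0.82 ± 0.16, edgeR adjusted p = 0.000394). Tnf had 0.164, 0.549 and 0.371, below the highest Blank there of 0.587, 0.682 and 0.727, against 0.368, 1.45 and 0.501 (-0.75 ± 0.27, edgeR adjusted p = 0.0276). The Tnf call was lost without tumour 1 (adjusted p = 0.159) and without tumour 2 (0.368). Tnfrsf1b, which endothelial cells are known to express, had 2.95, 2.20 and 2.13, against 3.24, 2.35 and 2.30, and did not pass. Its fitted value of 0.15 ± 0.25 has the opposite sign to these levels, since library size alone moved the median of all genes by -0.25 in this contrast. The 3 calls among 7 members, all lower, compare with 59.3% of all genes called in this contrast and 31.0% called lower.

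Among cells gated on Pdgfrb and Rgs5, 3 members were called and all were lower, where 51.6% of all genes were called and 62 of 258 were called lower. Tnfrsf1b had 1.67, 1.30 and 1.31 counts per 1000, against 3.24, 2.35 and 2.30 in other epithelial cells (-0.71 ± 0.26, edgeR adjusted p = 0.0352). Nfkb1 fell to 5.85, 6.85 and 6.51, against 10.2, 10.1 and 9.23 (-0.46 ± 0.17, edgeR adjusted p = 0.0352), and Csf1 to 2.36, 3.65 and 3.15, against 3.37, 6.85 and 4.91 (-0.53 ± 0.16, edgeR adjusted p = 0.0114). All 3 calls were lost without tumour 1 and without tumour 2. In the fibroblast-marker gate only Rela passed, at 11.2, 10.6 and 12.3, against 15.3, 13.9 and 15.3 (-0.43 ± 0.12, edgeR adjusted p = 0.0127), where 27.5% of genes did and 9.69% were lower, and the call was lost when any 1 tumour was left out. In basal keratin cells 0 of 7 passed by edgeR, where 12.8% of genes did. There 3 members had an unadjusted p under 0.05, and DESeq2 called 1, Csf1. Of all 258 genes, 65 had such a p, and DESeq2 called 64 genes.

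Other epithelial cells were the largest group among cells with several Tnf transcripts, although a larger share of macrophage-gated cells held them. Cells with at least 2 Tnf transcripts numbered 2296, 11708 and 3375. Other epithelial cells made up 42.6%, 58.1% and 55.5% of them, against 45.2%, 42.3% and 47.8% of all kept cells, so that they were over-represented in tumours 2 and 3 and not in tumour 1. The fibroblast-marker gate came second with 35.8%, 25.2% and 22.5%. It also held 63.5%, 60.1% and 48.9% of the cells with at least 2 transcripts of the highest Blank, here the code highest over all kept cells. Macrophage-gated cells made up 3.96%, 1.57% and 0.83%. Within the macrophage gate 1.83%, 6.59% and 2.47% of cells had at least 2 Tnf transcripts, against 0.349%, 3.55% and 0.581% of other epithelial cells and 0.177%, 1.07% and 0.347% of the Pecam1- and Cdh5-gated cells. With at least 1 transcript the shares were 10.7%, 23.2% and 11.5% of macrophage-gated cells, against 3.43%, 13.96% and 5.41% of other epithelial cells, at median depths of 99, 138 and 138 against 98, 121 and 110 transcripts. The highest Blank was found in 3.99%, 4.66% and 3.43% of other epithelial cells, so that in tumour 1 Tnf was found in no larger a share of them than this code. At 2 or more, where the highest Blank reached 0.16%, 0.227% and 0.13%, Tnf stood above it in each tumour. The fullest epithelial cells held 26, 25 and 24 Tnf transcripts, while the largest number of highest-Blank transcripts in such a cell was 9, 4 and 49. In tumour 3 a single epithelial cell thus held more of a Blank code than any held of Tnf.

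Tnf, Nfkbia and Tnfaip3 were found in the same epithelial cells more often than in cells matched for depth. Other epithelial cells with at least 1 transcript of a gate gene were compared with as many cells without it, matched within deciles of their remaining transcripts, and the gate gene was left out of all totals. In Nfkbia-positive cells Tnf had 0.513, 1.93 and 0.644 counts per 1000, against 0.303, 1.14 and 0.410 in Nfkbia-negative cells (log2 fold change 0.71 ± 0.04, edgeR adjusted p = 0.000181). Tnfaip3 had 0.934, 1.44 and 1.51, against 0.670, 0.850 and 1.05 (0.58 ± 0.06, edgeR adjusted p = 0.00353). Each was higher in the positive cells of all 3 tumours. These were 2 of the 6 members tested, and 9.34% of all genes were called in this contrast (5.45% called higher).

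Reading from Tnfaip3 gave the same trio. In Tnfaip3-positive cells Tnf had 0.695, 2.49 and 0.659 counts per 1000, against 0.352, 1.38 and 0.442 in Tnfaip3-negative cells (0.77 ± 0.08, edgeR adjusted p = 0.00313). Nfkbia had 4.06, 5.19 and 2.96, against 2.90, 3.28 and 2.08 (0.53 ± 0.06, edgeR adjusted p = 0.00313). Here 2.33% of all genes were called, and they were not members alone. The keratin gene Krt17, named after its value was seen, was as high as Tnf (0.77 ± 0.08, edgeR adjusted p = 0.00313). In Tnf-positive cells Nfkbia had 4.61, 4.79 and 3.23, against 3.05, 3.29 and 2.15 in Tnf-negative cells, and Tnfaip3 had 1.39, 1.68 and 1.64, against 0.758, 0.977 and 1.13. The log2 fold changes of 0.53 ± 0.06 and 0.68 ± 0.11 were as large as the others, but they did not pass after adjustment (0.0992 and 0.1). No gene of 257 did in that contrast (0.0% called; 50 had an unadjusted p under 0.05, and DESeq2 called 14, both members among them). No member was called in the 4 contrasts gated on Tnfrsf1b (0.389% of genes called), Nfkb1, Rela and Csf1 (0.0% each), where 6 member values had an unadjusted p under 0.05 and DESeq2 called 2. In these contrasts 52, 40, 65 and 28 of all 257 genes had such a p. DESeq2 called 33, 18, 28 and 17 genes.

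The same contrast gated on the highest Blank code called none of the 7 members, beside 4.26% of all genes. Its values were 0.02 ± 0.07 for Tnf, 0.00 ± 0.05 for Nfkbia and 0.07 ± 0.06 for Tnfaip3. Markers of other cell types moved with Tnf. Macrophage markers took 1.89, 1.72 and 1.28 per 1000 in Tnf-positive cells, against 1.54, 1.47 and 1.16 in Tnf-negative cells. The 6 T or NK cell markers took 1.44, 1.18 and 1.13, against 1.15, 1.02 and 1.07, and the 3 neutrophil markers 0.947, 1.02 and 0.912, against 0.823, 0.954 and 0.765. All 3 lists were higher in the Tnf-positive cells of each tumour. In tumour 1 the genes with the highest odds of detection together with Tnf included the cytotoxic granule protease Gzmb (log2 odds ratio 0.63) and the T cell genes Cd7 (0.59) and Cd3g (0.58). Tumours 2 and 3 gave 0.30 and 0.21 for Gzmb and 0.31 and -0.05 for Cd3g. In other epithelial cells, 0 of the 6 T or NK markers lay above the highest Blank in any tumour. Of the macrophage and neutrophil lists, only Cx3cr1 and Csf3r did.

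The trio's values were as large in epithelial cells with no stromal marker transcript at all, a restriction chosen after the data were seen. There Nfkbia and Tnfaip3 gave 0.57 ± 0.11 and 0.73 ± 0.12 in Tnf-positive cells, Tnf and Tnfaip3 gave 0.71 ± 0.06 and 0.64 ± 0.09 in Nfkbia-positive cells, and all 6 ordered values passed, with edgeR adjusted p between 0.000329 and 0.00778, where 5.39%, 2.07% and 6.64% of genes did in the contrasts gated on Tnf, Nfkbia and Tnfaip3. The Blank-gated contrast among such cells called 8.68% of genes and none of the 7 members. These cells could still hold immune transcripts, so the comparison was repeated in epithelial cells that also held no transcript of the T or NK, neutrophil and dendritic markers or of Cd7, again chosen after the data were seen. Among these, with 1597, 4192 and 3491 Tnf-positive cells, Nfkbia gave 0.63 ± 0.11 and Tnfaip3 0.69 ± 0.10 in Tnf-positive over Tnf-negative cells. The 6 ordered values lay between 0.61 and 0.82 and all passed, with edgeR adjusted p between 1.27e-10 and 0.0129, where 1.74%, 4.35% and 11.3% of genes did in the contrasts gated on Tnf, Nfkbia and Tnfaip3. The Blank-gated values there were 0.18 ± 0.14 for Tnf, 0.00 ± 0.09 for Nfkbia and 0.14 ± 0.13 for Tnfaip3, and none of the 7 members was called, beside 6.96% of genes.

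Odds of joint detection within depth deciles gave the same picture for each tumour. The log2 odds ratio of Tnf with Tnfaip3 was 0.83, 0.76 and 0.47, that of Tnf with Nfkbia 0.61, 0.61 and 0.53, and that of Nfkbia with Tnfaip3 0.42, 0.68 and 0.46. The median over all pairs of genes above the Blank codes was 0.005, 0.006 and 0.024, and the largest value of a member with a Blank code 0.30, 0.40 and 0.32. Blank codes gave positive odds with each other, with medians of 0.13, 0.22 and 0.21 and maxima of 0.79, 0.79 and 0.75, so that joint false decoding of some code pairs reaches the size of the members' odds. The part of false decoding in the trio was not tested beyond the member and Blank pairs given here. Rela with Nfkb1, the 2 subunits, gave only 0.05, -0.03 and 0.09.

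The trio's values stayed large when the cells were also matched for place. In a comparison added after the data were seen, positive and negative cells were drawn from the same 300 µm tile as well as the same depth decile. The 6 ordered values within the trio were between 0.44 and 0.71, and all passed, with 12.5%, 19.8% and 11.7% of all genes called in the contrasts gated on Tnf, Nfkbia and Tnfaip3. Tnf, for instance, had 0.505, 1.84 and 0.629 counts per 1000 in Nfkbia-positive cells, against 0.324, 1.25 and 0.441 in their tile-mates without Nfkbia (0.56 ± 0.03). In Blank-gated cells the values were 0.04 for Tnf, 0.03 for Nfkbia and 0.11 ± 0.04 for Tnfaip3, which passed at this setting. Csf1 passed too (-0.07 ± 0.02), as did 22.9% of genes.

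The values among the receptor gene, Nfkb1 and Tnf lay nearer 0 under this matching. Nfkb1 had 11.6, 11.1 and 10.52 counts per 1000 in Tnfrsf1b-positive cells, against 9.61, 9.86 and 8.54 in Tnfrsf1b-negative cells, when matched for depth alone (0.23 ± 0.06, edgeR adjusted p = 0.181). Matched for tile too, the levels were 11.4, 10.9 and 10.2, against 10.6, 10.7 and 9.86 (0.03 ± 0.03). Tnfrsf1b in Nfkb1-positive cells gave 0.34 ± 0.07 by depth and 0.08 ± 0.04 by depth and tile. Nfkb1 in Tnf-positive cells gave 0.11 ± 0.08 and 0.00 ± 0.03, and Tnfrsf1b 0.13 ± 0.08 and -0.06 ± 0.04. None of these values passed under either matching, and the change between the matchings was not itself tested.

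**Figure D2:**
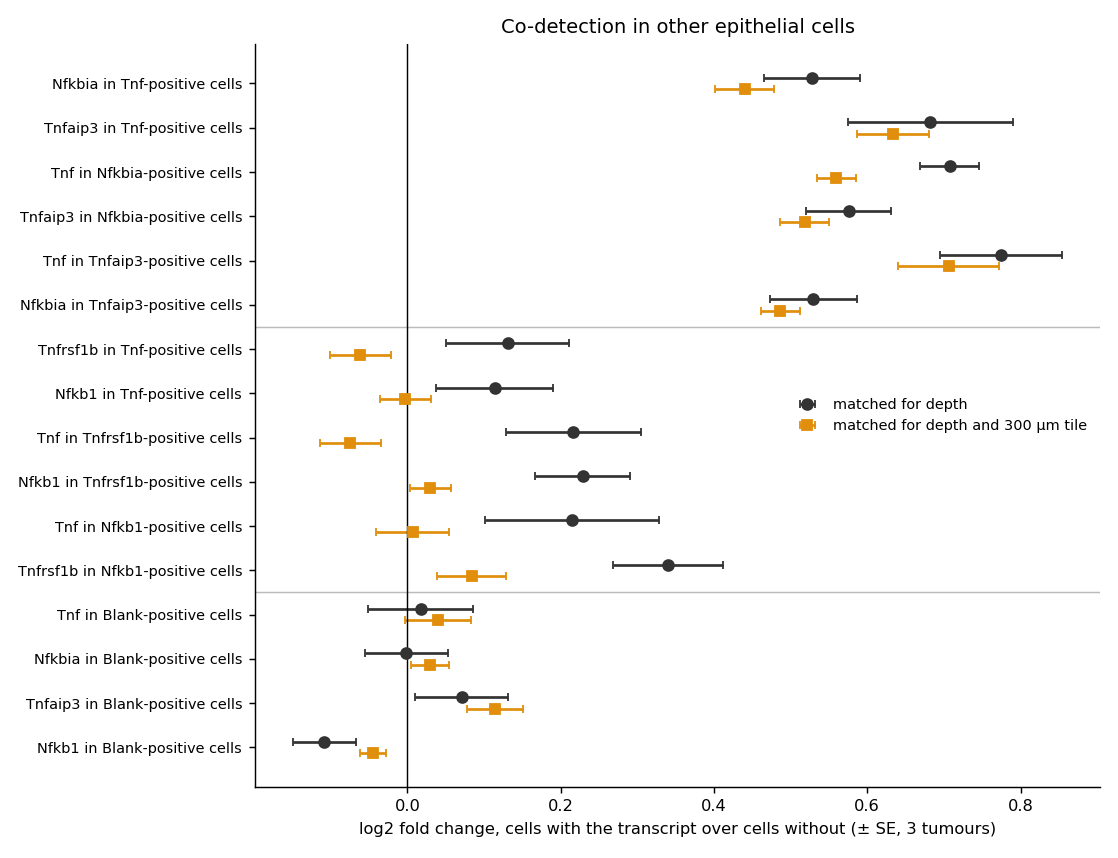
Log2 fold change of a member (named first on each line) in other epithelial cells that hold at least 1 transcript of the gate gene, over cells that hold none. Circles are matched for depth and squares for depth and 300 µm tile, and bars are the SE from the fit to 3 tumours. The 6 values among Tnf, Nfkbia and Tnfaip3 lie at 0.44 or above under both matchings, those among Tnf, Tnfrsf1b and Nfkb1 lie nearer 0 once the tile is matched, and Blank-gated cells lie near 0.

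Rela, the subunit with the steadiest level, showed small shifts in the tile-matched comparison. Rela-positive cells were higher than Rela-negative cells in Tnf (0.16 ± 0.03, edgeR adjusted p = 0.000574), Nfkbia (0.11 ± 0.02, edgeR adjusted p = 0.00154), Tnfaip3 (0.11 ± 0.03, edgeR adjusted p = 0.00942) and Nfkb1 (0.06 ± 0.02, edgeR adjusted p = 0.0197), where 22.2% of genes were called. None passed when cells were matched for depth alone (0.12, 0.09, 0.09 and 0.07). These shifts are of the size seen for Tnfaip3 in Blank-gated cells. In all, 16 of the 42 ordered pairs of members were called under tile matching, and 4 under matching for depth. Outside the trio the called values lay between -0.12 and 0.16. Among them was Tnfrsf1b in Csf1-positive cells (0.10 ± 0.02, edgeR adjusted p = 0.0186, where 8.17% of genes were called), and Nfkbia (-0.12 ± 0.04) and Rela (-0.07 ± 0.02) were lower in Tnfrsf1b-positive cells, where 23.7% were. Cells gated on Nfkb1 gave no member, and 5.06% of genes.

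The levels of Nfkbia and Tnfaip3 climbed with the number of Tnf transcripts in the cell. Among other epithelial cells with 0, 1, 2 and 3 or more Tnf transcripts, Nfkbia had 2.93, 4.12, 7.17 and 11.6 counts per 1000 in tumour 1. In tumour 2 it had 3.28, 4.19, 5.22 and 7.59, and in tumour 3 it had 2.16, 2.95, 4.63 and 7.07. Each step was upward in each tumour. Tnfaip3 had 0.719, 1.19, 2.45 and 4.19 counts per 1000 in tumour 1, 0.952, 1.36, 1.904 and 3.21 in tumour 2, while tumour 3 gave 1.14, 1.48, 2.35 and 3.89. The cells at 3 or more numbered 261, 2588 and 505. These are sums per tumour and carry no test, and the median depth also climbed with the number, from 97 to 149, from 114 to 236 and from 109 to 165 transcripts.

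Csf1 and Rela went the same way less steeply. Csf1 had 3.36, 3.62, 3.78 and 4.79 counts per 1000 along the series in tumour 1, 6.48, 8.05, 9.005 and 10.2 in tumour 2, while tumour 3 gave 4.89, 5.09, 5.79 and 6.11. Rela had 15.3, 15.2, 16.1 and 17.8 in tumour 1, and the cells with 3 or more Tnf transcripts reached 15.9 and 17.7 in tumours 2 and 3, against 13.9 and 15.3 in cells with none. The receptor gene and Nfkb1 differed between tumours. Tnfrsf1b had 3.23, 3.48, 2.86 and 2.94 in tumour 1, and 2.21, 2.86, 3.16 and 3.40 in tumour 2. Nfkb1 had 10.2, 10.2, 9.97 and 9.72 in tumour 1, 9.63, 11.7, 12.9 and 13.4 in tumour 2, while tumour 3 gave 9.17, 10.1, 10.4 and 10.7. Grouped by the highest Blank instead, Nfkbia had 2.997, 3.04, 3.26 and 3.61 in tumour 1 and 2.22, 2.38, 2.65 and 2.28 in tumour 3. In tumour 2 the Blank groups also went up, to 4.78 for Nfkbia and 1.68 for Tnfaip3 at 2 transcripts. At 3 or more, where only 18 cells remained, they gave 4.72 for Nfkbia and 3.59 for Tnfaip3, the second of which exceeds the 3.21 of the cells with 3 or more Tnf transcripts.

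**Figure D3:**
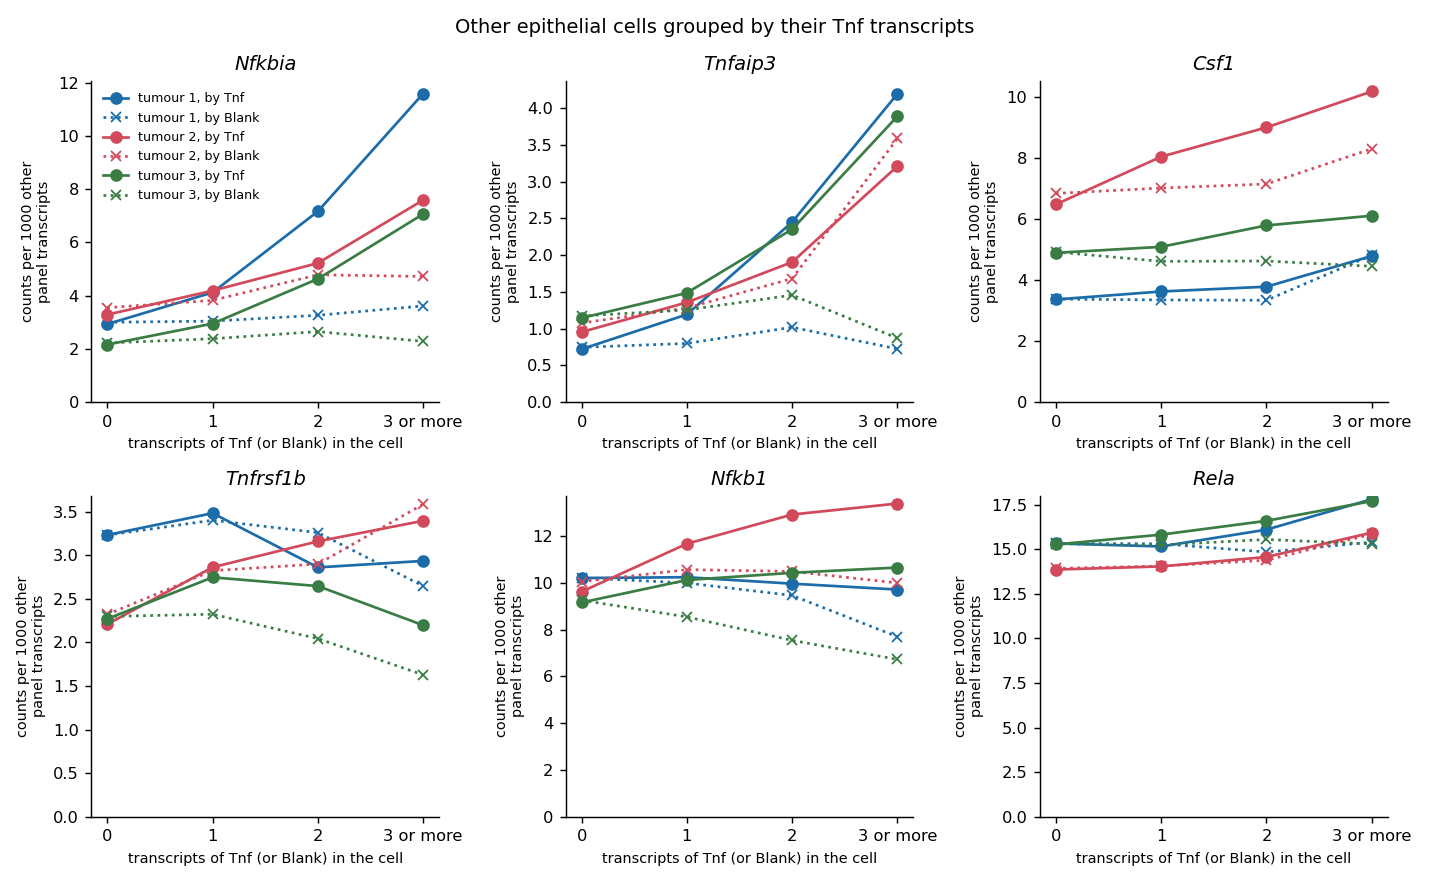
Counts per 1000 other panel transcripts (vertical axes, from 0) of 6 members in other epithelial cells, grouped by how many Tnf transcripts the cell holds (solid lines, circles) or how many of the highest Blank code (dotted lines, crosses). Each line is 1 tumour. Nfkbia reaches 11.6, 7.59 and 7.07 and Tnfaip3 4.19, 3.21 and 3.89 in cells with 3 or more Tnf transcripts of tumours 1, 2 and 3; the last Blank point rests on 28, 18 and 58 cells.

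Macrophage-gated cells with a Tnf transcript were also the higher ones in Nfkbia and Tnfaip3. Nfkbia had 3.96, 5.06 and 3.10 counts per 1000 in macrophage-gated cells with Tnf (530, 647 and 130 cells), against 2.95, 3.14 and 2.02 in those without. Tnfaip3 had 1.43, 1.79 and 1.42, against 0.837, 1.13 and 1.17. The cells with Tnf were higher in each tumour, but depth was not matched (medians of 119, 187 and 138.5 against 96, 124 and 138 transcripts). In tumour 3 the highest Blank took 5.97 against 2.0003, picked separately in each group and so not necessarily the same code. These values are given without a test.

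The members differed in how patchy they were within a tumour. Across 4626, 5619 and 6357 tiles of 100 µm, the spread of Tnf between tiles beyond counting error was 80.3%, 88.3% and 90.8% of its mean, against medians of 47.4%, 59.7% and 58.0% over all genes above the Blank codes. In tumour 2, the 10% of tiles with the highest Tnf level held 38.1% of the Tnf transcripts. Tnfrsf1b was nearly as uneven, at 66.3%, 85.7% and 81.0%. Rela was the opposite, at 15.98%, 11.9% and 14.9%, and 138 of 141, 138 of 139 and 143 of 144 genes were more uneven. Nfkb1 (28.5%, 29.3% and 38.3%) and Nfkbia (29.1%, 39.5% and 42.1%) lay below the median gene in each tumour. The highest Blank had 53.0%, 48.0% and 146%. Over the 27 Blank codes the median spread was 42.6%, 48.2% and 54.6% and the largest 305%, 102% and 779%, so that single Blank codes were more uneven than Tnf in each tumour.

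Tiles rich in Tnf in tumour 2 were also rich in Nfkb1, Csf1 and Tnfrsf1b. The correlation of log2 levels across tiles was 0.45 for Tnf with Nfkb1, 0.39 with Csf1 and 0.36 with Tnfrsf1b in tumour 2, against -0.01, 0.01 and 0.09 in tumour 1. Tumour 3 gave 0.23, 0.04 and 0.19. Of the 21 pairs of members, 3 exceeded in each tumour the largest correlation of either gene with a Blank code. These were Tnfrsf1b with Nfkb1 (0.48, 0.33 and 0.39), Tnf with Nfkbia (0.24, 0.29 and 0.16, where Tnf reached 0.11, 0.15 and 0.15 with a Blank) and Nfkbia with Tnfaip3 (0.13, 0.32 and 0.31). Nfkb1 with Tnfaip3 turned negative in tumour 3 (-0.32). The largest correlation of a member with any Blank code was 0.15. Tiles share a section, its depth and their neighbours, so these are descriptions of 3 sections.

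**Figure D4:**
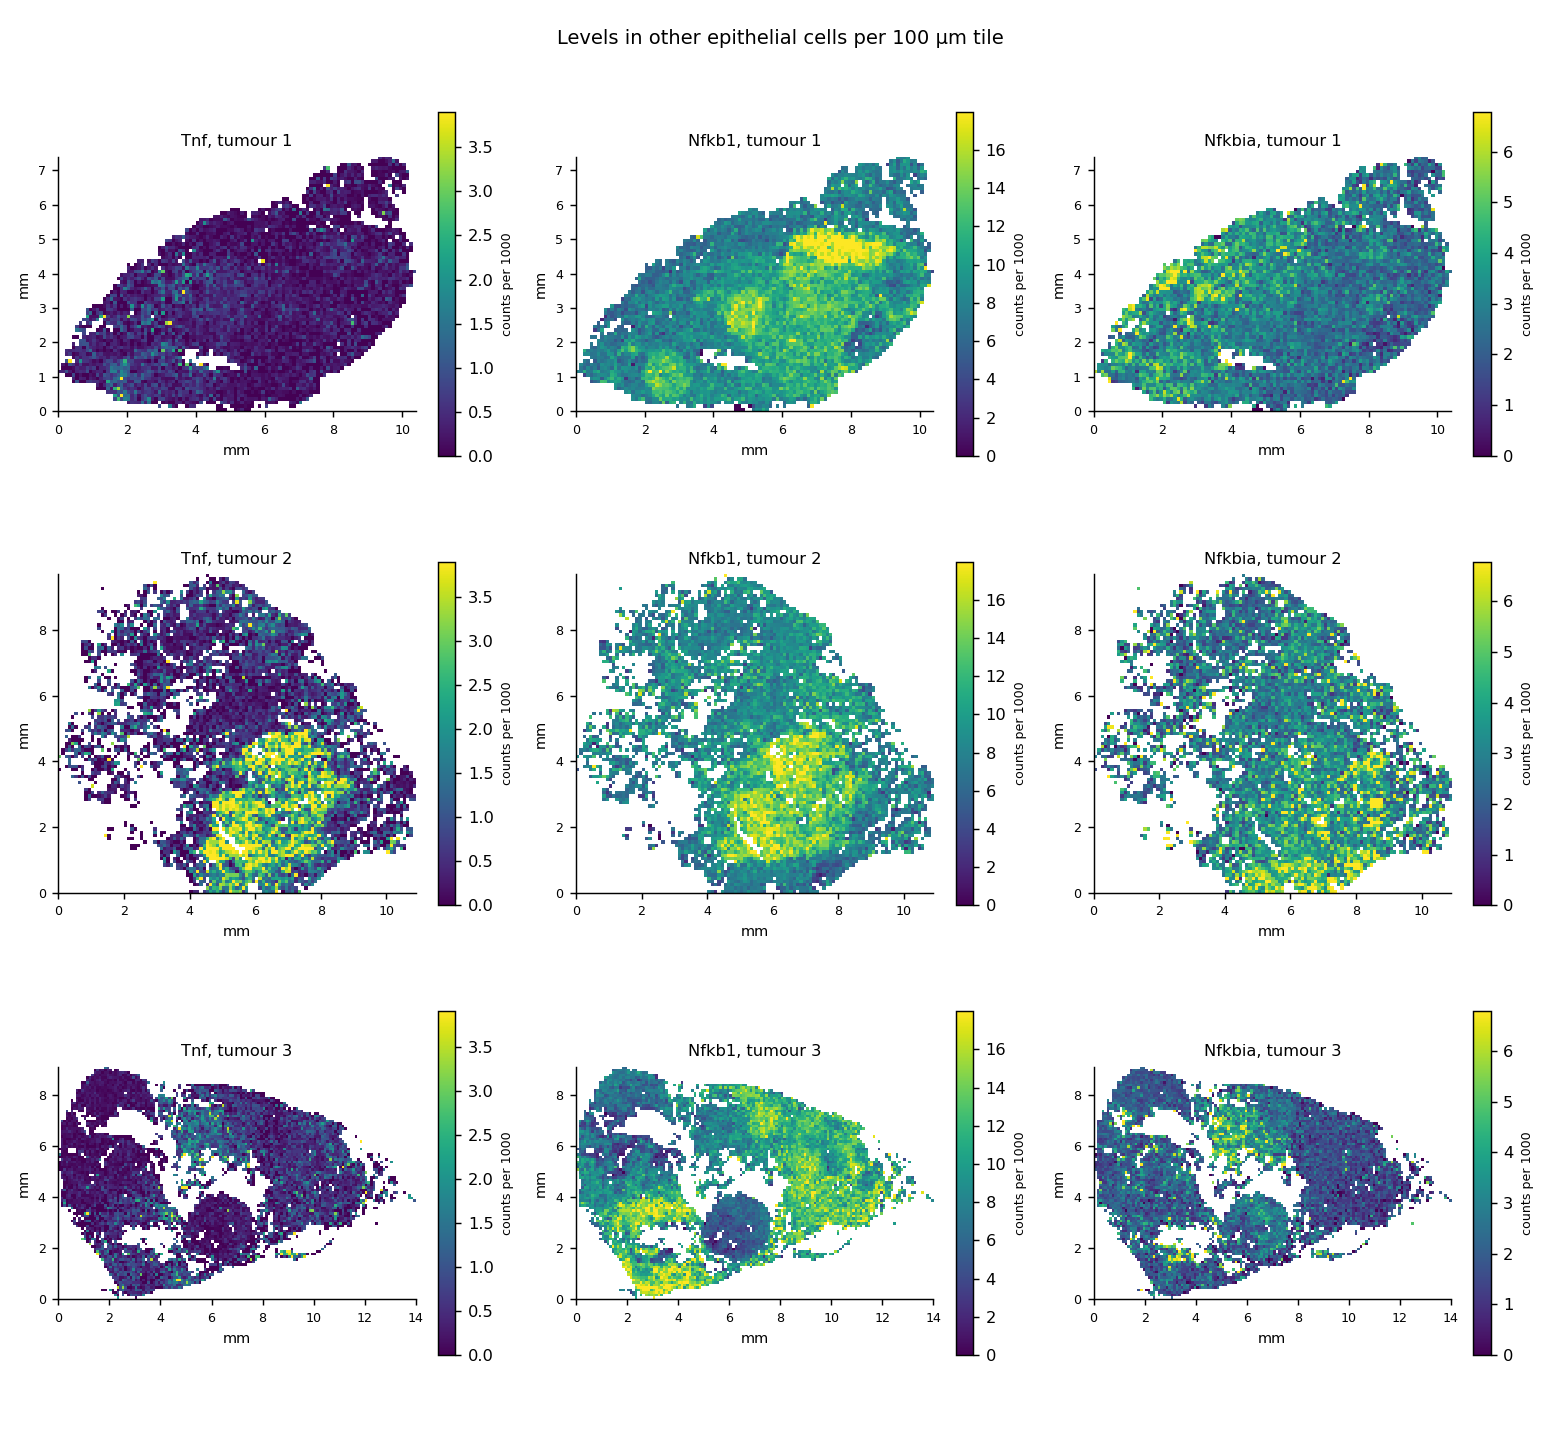
Level in other epithelial cells per 100 µm tile (colour, counts per 1000; 1 scale per gene, topped at the 98th percentile) for Tnf, Nfkb1 and Nfkbia in tumours 1 to 3; axes are in mm from the section's corner. In tumour 2 the same region is high in Tnf and in Nfkb1, the pair with a tile correlation of 0.45 there, and the Nfkbia-rich tiles only partly overlap it.

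By the rule for likeness (the highest value of the lowest of 3 tile correlations), the genes most like Tnf were Tgfb1 (0.31, 0.29 and 0.28), Bglap3 and H2-K1. Those most like Tnfrsf1b were Chad (0.61, 0.39 and 0.54), Nfkb1 and H2-K1, and those most like Nfkb1 were Notch2 (0.53, 0.48 and 0.48), Tnfrsf1b and Pmepa1. The genes most like Nfkbia were the immediate-early gene Nr4a1 (0.24, 0.25 and 0.25), Arg1 and Atf3, and those most like Tnfaip3 were Tgif1 (0.14, 0.27 and 0.38), Nfkbia and Nr4a1. Tnfaip3 with Nr4a1 gave 0.09, 0.28 and 0.11, and in tumour 3 this was no higher than its largest correlation with a Blank code (0.11). Rela (Cldn4, Ets2 and Tead2) and Csf1 (Wnt5a, Bglap3 and Isg15) had no partner above 0.144 and 0.136 in all 3 tumours. Csf1 went with the interferon-induced gene Isg15 mainly in tumour 3 (0.12, 0.20 and 0.51).

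None of the 28 values by position was called by edgeR, while 4 had an unadjusted p under 0.05 and DESeq2 called 8. In the contrasts on macrophage-gated, fibroblast-marker-gated, Pecam1- and Cdh5-gated cells and the margin, 20, 52, 64 and 55 of 258 genes had such a p. DESeq2 called 13, 79, 56 and 59 genes there. Other epithelial cells with a macrophage-gated cell within 25 µm were set against those with none within 75 µm. Tnf had 0.412, 1.87 and 0.489 counts per 1000 in near cells, against 0.338, 1.095 and 0.505 in far cells (log2 fold change 0.30 ± 0.20, interval from -0.09 to 0.70). Tumours 1 and 2 were higher near macrophage-gated cells and tumour 3 was not. No gene of 258 was called in this contrast (0.0%, with 20 at an unadjusted p under 0.05 and 13 called by DESeq2), and macrophage markers in the near cells were 2.38, 2.26 and 1.65 per 1000, against 1.27, 1.27 and 1.07.

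Tnf was lower in epithelial cells farther from macrophage-gated cells in tumours 1 and 2, and nearly level in tumour 3. In tumour 2 it had 1.86 counts per 1000 within 15 µm of a macrophage-gated cell, 1.81 at 25 to 50 µm and 0.762 beyond 150 µm. Tumour 1 gave 0.437, 0.374 and 0.283 at these distances and was lower at each of the 5 steps between 6 distance bins, while the highest Blank had 0.366, 0.372 and 0.432. Tumour 3 gave 0.534, 0.490 and 0.507. The macrophage markers in these epithelial cells were also lower with distance, at 3.05, 1.72 and 1.13 per 1000 in tumour 1 and 2.66, 1.80 and 1.02 in tumour 2, and their part in the Tnf values was not tested. Tnfrsf1b ran the same way in tumour 2 (2.92, 2.74 and 1.40) and the other way in tumour 1 (3.0025, 3.09 and 3.70).

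**Figure D5:**
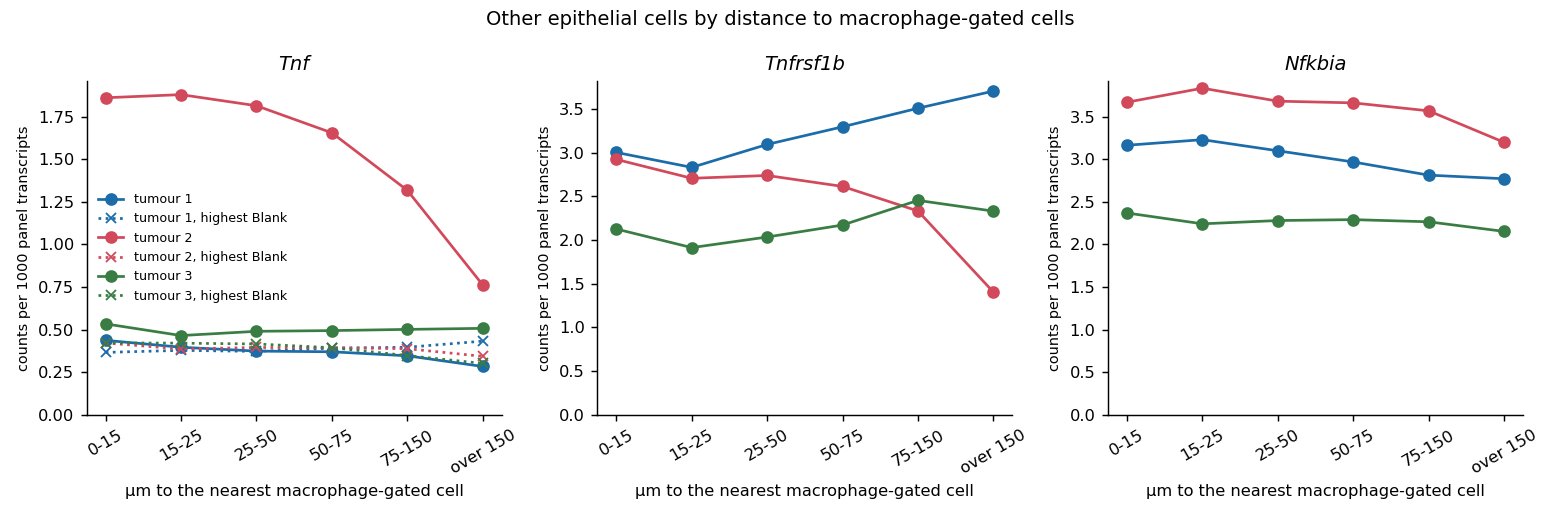
Counts per 1000 panel transcripts (vertical axes, from 0) of Tnf, Tnfrsf1b and Nfkbia in other epithelial cells by distance to the nearest macrophage-gated cell (horizontal axes, in µm bins). Each solid line is 1 tumour, and the dotted lines beside Tnf are the highest Blank code. Tnf is lower with distance in tumours 1 and 2, at 0.283 and 0.762 beyond 150 µm, and nearly level in tumour 3.

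Near Pecam1- and Cdh5-gated cells, Rela had 14.2, 13.2 and 14.2 counts per 1000, against 15.6, 14.1 and 15.4 in far cells. The fall of 0.16 ± 0.06 on the log2 scale was seen in 3 of 3 tumours and did not pass (edgeR adjusted p = 0.147, where 6.59% of genes passed). DESeq2 called it as 1 of 56 genes. The contrast on the fibroblast-marker gate had only tumours 2 and 3, since 32 cells of tumour 1 lay far from such cells, and 5.81% of genes were called in it but no member.

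At the tumour margin, within 150 µm of the outer edge, Tnfrsf1b and Nfkb1 were the members that differed most from the interior at 500 µm or more. Tnfrsf1b had 1.83, 1.61 and 1.66 counts per 1000 at the margin, against 3.50, 2.52 and 2.36 in the interior. Its log2 fold change of -0.92 ± 0.24 did not pass (edgeR adjusted p = 0.142, and 0.0311 without tumour 2). Nfkb1 had 7.98, 8.04 and 8.65, against 10.7, 10.497 and 9.20 (-0.53 ± 0.18, edgeR adjusted p = 0.157). Tnf gave -0.49 ± 0.22, Csf1 -0.43 ± 0.21, Tnfaip3 -0.39 ± 0.22, Nfkbia -0.22 ± 0.22 and Rela -0.19 ± 0.15, although the level of Rela was higher at the margin in 3 of 3 tumours (15.7, 14.1 and 15.9, against 15.3, 13.9 and 15.2). Of 258 genes 1 passed (0.388%, with 55 at an unadjusted p under 0.05), and DESeq2 called 59 genes, with 5 of the 7 members among them. Under library size alone all genes moved by 0.23 and the values for Nfkbia and Rela turned to 0.01 and 0.04. The highest Blank, picked separately in each arm, was also higher at the margin, at 0.543, 0.588 and 0.4997, against 0.358, 0.351 and 0.333. So were the macrophage markers, at 2.17, 2.29 and 1.72, against 1.56, 1.49 and 1.13.

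Epithelial cells without Tnf that lay within 25 µm of a cell with at least 2 Tnf transcripts were compared with those that had no such cell within 75 µm. Nfkbia had 3.47, 3.68 and 2.59 counts per 1000 in near cells, against 2.74, 2.93 and 2.07 in far cells (log2 fold change 0.30 ± 0.12, edgeR adjusted p = 0.233). Tnfrsf1b had 3.38, 2.76 and 2.79, against 3.01, 1.59 and 1.87 (0.48 ± 0.16, edgeR adjusted p = 0.196). Both were higher near Tnf in 3 of 3 tumours. Tnfaip3 (0.26 ± 0.17), Nfkb1 (0.23 ± 0.12), Csf1 (0.09 ± 0.14) and Rela (-0.04 ± 0.09) did not pass either. In all, 0 of 6 members and 0.0% of genes were called by edgeR, 2 members had an unadjusted p under 0.05 and DESeq2 called the same 2, Nfkbia and Tnfrsf1b. Of all 257 genes, 51 had such a p, and DESeq2 called 41 genes. With both arms drawn from the same 300 µm tiles, Tnfrsf1b gave -0.04. The counterpart around cells with a Blank code called 3.49% of genes and no member. It gave 0.17 ± 0.11 for Tnfrsf1b and 0.19 ± 0.12 for Tnfaip3, both higher near the Blank in 3 of 3 tumours. Nfkbia gave 0.05 ± 0.10 there. Depth was not matched in the Tnf comparison, where medians in tumours 1 and 2 were 104 and 139 transcripts in near cells, against 94 and 99 in far cells.

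Of 22 other genes of the pathway on the panel (receptor adaptors, cytokines, chemokines and acute-phase targets), 7 were higher and 2 lower in macrophage-gated than in other epithelial cells, where 42 and 59 of all 258 genes were. The lower ones were Irf1, an interferon-response factor (log2 fold change -0.44 ± 0.16), and Ikbkg, a subunit of the kinase that releases NF-kB (-0.37 ± 0.13). None of the 7 higher ones lay above the highest Blank in all tumours. The median over the list was 0.07, beside -0.05 over all genes. In Pecam1- and Cdh5-gated cells 5 were higher and 6 lower, shares no larger than those of all genes (73 higher and 80 lower of 258). Among the lower ones were Cd14, the co-receptor for bacterial lipopolysaccharide (-1.34 ± 0.18), Slpi, a protease inhibitor (-1.30 ± 0.42), Saa1, an acute-phase protein (-0.85 ± 0.25), and Myd88, the adaptor of Toll-like receptors (-0.74 ± 0.17). In the co-detection contrasts gated on Nfkbia and on Tnfaip3, the chemokine genes Cxcl2 and Ccl5, 2 of the 22, were higher and none lower, where 14 and 6 of all 257 genes were higher, and neither lay above the highest Blank in all tumours. The Blank-gated contrast called 3 of the 22 higher, chosen for mention after their values were seen, namely Saa1 (0.57 ± 0.09), Saa2 (0.68 ± 0.08) and the metalloproteinase gene Mmp3 (1.07 ± 0.20), so the counts gated on Nfkbia and Tnfaip3 do not exceed what a Blank code gave.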

How the data were processed

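Values are counts of decoded transcripts per segmented cell, as deposited in the authors' cell-by-gene tables, with cell centres and volumes in the cell metadata. Scanpy 1.9.3 is named in the submitters' processing notes; the sources used here do not give the decoding and segmentation settings. Coordinates were taken to be in µm. Cells with at least 20 transcripts and a volume from 50 to 3 times the median were kept, and no doublet caller was run.

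A stromal gate needed at least 3 transcripts of at least 2 of its markers and more than any other stromal list; epithelial cells passed no stromal gate. Near and far cells lay within 25 µm and beyond 75 µm; margin and interior were within 150 µm and beyond 500 µm of the tissue edge. Counts were summed per tumour and arm and tested over all genes with the quasi-likelihood test of edgeR 4.0.16 (R 4.3.3, limma 3.58.1), TMM scaling and the tumour as a block, because both arms of a comparison come from the same section. P-values were adjusted by Benjamini-Hochberg, with DESeq2 1.42.0 as an alternative, and the test was checked on simulated data. P-values set the difference between arms against its spread across 3 sections, 1 per tumour, since the block takes up differences between sections. The estimate of this spread is drawn in part from all genes of the fit. A p-value thus does not rest on the steadiness of 1 gene alone, and p-values of different fits are not directly comparable. The labels do not say whether the tumours came from separate mice. Summed levels carry no interval, and the number of tumours limits the precision.

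Named genes were the 7 members, at most 4 called pathway genes per contrast above the highest Blank in all 3 tumours, and the 3 genes most like each member across 100 µm tiles. Members, lists and tests were chosen with earlier results of these data known.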

Additional observations from a re-analysis of the deposited data

How the results depend on the processing

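The 15 called values kept their sign in 158 of 158 alternatives and stayed called in 116. The 96 values not called kept their sign in 993 of 1063. Of the 35 values by gate, 11 were called. Leaving out 1 tumour gave 1 to 9, DESeq2 18 and a fit with no replicate block 2. Over all genes DESeq2 called 112, 122, 171, 154 and 64 in the macrophage, fibroblast-marker, Pecam1 and Cdh5, Pdgfrb and Rgs5 and basal keratin gates. Of 28 values by position 0 were called; leaving out 1 tumour gave 0 to 1, DESeq2 8, cut-offs of 15 and 50 µm 1, and arms matched within 300 µm tiles 1. Of 6 values around Tnf-bearing cells 0 were called, with 2 by DESeq2. Of 42 co-detection values 4 were called; leaving out 1 tumour gave 4 to 8, DESeq2 8, no replicate block 0 and tile matching 16. Tile matching and the restrictions to cells with no stromal, or no stromal or immune, marker transcript were chosen after seeing the data.

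Every value that changed sign was one that had not been called. Under library size alone Nfkbia in macrophage-gated cells became 0.0156, and at the margin Nfkbia became 0.00861 and Rela 0.0391. In macrophage-gated cells Tnfaip3 kept its negative sign in only 3 of 10 alternatives and ranged from -0.096 to 0.222. Around Tnf-bearing cells, Rela became 0.00398 with only other epithelial source cells and 0.0318 in matched tiles, Tnfrsf1b became -0.0401 in matched tiles, and Csf1 ranged from -0.0600 to 0.184 when 1 tumour was left out. In Tnf-positive cells Rela ranged from -0.0182 to 0.00287 when 1 tumour was left out, and became 0.0359 under library size, 0.0262 at 2 transcripts, 0.0336 in matched tiles, 0.00917 without stromal markers and 0.0484 without stromal or immune markers. In matched tiles Tnfrsf1b became -0.0617 and Nfkb1 -0.00286 in Tnf-positive cells, and Tnf became -0.0745 in Tnfrsf1b-positive cells. The cause was not tested.

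With 3 tumours and 1 section each, differences between tumours have no replicate. In other epithelial cells of tumour 1 the level of Tnf was no higher than that of the highest Blank code. The macrophage and fibroblast-marker gates held epithelial transcripts beside those of their own list, and the source of these was not tested.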

Other observations

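Csf1 was found with interferon-induced genes in the same other epithelial cells of tumour 3, pairs chosen after their values were seen. The log2 odds of joint detection within depth deciles for Csf1 in tumours 1, 2 and 3 were 0.11, 0.35 and 1.02 with Mx1, 0.02, 0.47 and 0.93 with Ifit3, and 0.16, 0.25 and 0.77 with Isg15. These are descriptions of 3 sections with no test.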
